A study of Mus musculus with 16 samples.

Results

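Kidneys of mice with an intact Vhl gene were compared with and without glycerol-induced acute kidney injury (AKI), 5 AKI arrays against 3 control arrays of a series of 16. One array was hybridised per labelled biological replicate, and 19938 genes were tested, each through the probe set with the highest mean over the 16 arrays. Every animal came from a transgenic line in which doxycycline deletes Vhl in renal tubules, the inducible transcription factor being driven by the Pax8 promoter; the control and AKI animals received no doxycycline and their genotype is labelled wt. Controls were untreated. AKI animals were given glycerol at 50%, in a volume of 0.05 ml for each 10 g of body weight, into the muscle of the left hind limb under isoflurane, and had no drinking water from 20 h before to 24 h after it. The 3 VHL-KO and 5 VHL-KO/AKI arrays came from animals that received doxycycline 4 days before sacrifice, at 0.1 mg for each 10 g of body weight, the latter with glycerol as well. RNA came from halved kidneys of animals of both sexes; the sex and age of each animal and the hour of sacrifice after glycerol are not in the labels used here. The samples are labelled as biological replicates.

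Glycerol in muscle breaks down muscle fibres, and the myoglobin they release is filtered and taken up by the tubule, where its haem is toxic to epithelial cells. Injured tubule cells are known to make secreted and surface proteins that serve as markers of kidney damage, to switch on stress transcription factors, and to lose the transporters and metabolic enzymes of the mature nephron. The kidney needs much mitochondrial energy to drive sodium transport, most of it in the proximal tubule and the thick ascending limb. Because RNA came from whole tissue, fewer cells of a type and less RNA per cell cannot be told apart.

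All values are log2 levels, and each difference is the mean of the 5 AKI arrays minus the mean of the 3 controls, with its standard error (SE). A gene is said to have risen or fallen where its adjusted p from limma's moderated test (Benjamini-Hochberg over 19938 genes) was under 0.05. Array medians lay between 5.92 and 6.03. Vhl itself read 7.03, 7.05 and 7.10 in the controls and 7.01 to 7.36 in AKI, against 6.35 to 6.70 in the 8 arrays of doxycycline-treated animals, so the labelled deletion was visible and the AKI arrays lay on the intact side. Sex-linked transcripts moved with injury. Xist, which is made from the inactive X chromosome, read 10.23 to 11.19 in the controls and 4.16 to 5.08 in AKI. Averaged over Eif2s3y, Kdm5d and Uty, all on the Y chromosome, the level was 5.01 and 4.96 in controls 1 and 2, 7.43 in control 3, and 7.83 to 8.26 in AKI. Control 3 therefore carried both signals, while controls 1 and 2 carried only the first. Sex-linked signal, water withdrawal, isoflurane and the injection itself cannot be told apart from glycerol in this design, since the controls were untreated. Values against control 3 alone are given for those of the 220 named genes whose fold moved by over 1.5 times in that comparison, which were 11. AKI 4 stood apart: on the first principal component of the 8 arrays (66% of the variance) it lay at -3.1, the other AKI arrays at 31.5 to 39.0 and the controls at -47.7 to -41.3.

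In AKI 2632 genes rose and 2968 fell, 28.1% of those tested, with 13.2% rising and 14.9% falling. Counts within the gene lists are to be read beside these shares. Changes of at least 2-fold were seen in 493 genes that rose, 2.47% of those tested, and in 601 that fell, 3.01%. Controls and AKI did not overlap in 4555 of the 5600 called genes. Non-overlap was seen in 5438 of all genes tested, or 27.3%. Without AKI 4, 6811 genes were called, 5392 of the 5600 among them. Leaving out control 1 lowered the number of rises to 1745. Against control 3 alone 521 genes rose and 771 fell, with a median SE of 0.151 in place of 0.101. Of the 5600 genes, 5591 kept their direction in that comparison. It uses the same AKI arrays, and control 3 is part of the control mean by which the genes were called. Agreement in direction was therefore largely built in. Control 3 also carried the Xist signal, so the comparison does not remove the sex-linked contrast. With a sex-linked covariate (Xist minus the Y-linked mean) no gene was called by limma and 712 had an unadjusted p under 0.05. The median SE was then 0.433.

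The largest rise was that of Krt20, a keratin of simple epithelia. Its levels were 4.55, 4.45 and 4.59 in controls 1 to 3 and 11.57, 11.61, 11.34, 8.95 and 11.40 in AKI 1 to 5. The groups were far apart, with AKI 4 lowest among the injured arrays, and the difference was 6.44 ± 0.538 (SE; adjusted p = 3.49e-06). Havcr1, which encodes the tubule injury marker KIM-1, read 6.02, 6.63 and 6.50 in controls 1 to 3, 9.30 in AKI 4 and 12.23 to 13.13 in the other AKI arrays. AKI 4 lay between the groups, and the rise was 5.75 ± 0.646 (SE; adjusted p = 2.87e-05), or 6.46 without it. Lcn2, which encodes the iron-siderophore carrier NGAL, read 8.26, 8.24 and 8.42 in controls 1 to 3 and 13.51, 13.76, 13.67, 12.77 and 13.46 in AKI 1 to 5; every AKI array was above every control and the rise was 5.13 ± 0.238 (SE; adjusted p = 1.36e-08). The list of 16 tubular injury markers had 10 that rose and 0 that fell, with a median of 1.30 against 0.02 over all genes. Without AKI 4 the median was 1.70. Spp1, Gdf15 and Cdkn1a, also on this list, were not measured. Timp1, an inhibitor of matrix metalloproteases, rose by 3.53 ± 0.712 (SE; adjusted p = 0.00191), or by 4.24 without AKI 4. In AKI 4 it was at 6.18, close to the controls at 5.49 to 5.58, and in the other AKI arrays it was at 8.95 to 10.36. Plaur, the urokinase receptor, rose by 3.25 ± 0.359 (SE; adjusted p = 2.5e-05), and Myc, a growth-promoting transcription factor, by 3.19 ± 0.204 (SE; adjusted p = 4.32e-07). The injury markers Vcam1, Tff3, Itgb6, Cp, Ccl2 and Aldh1a2 did not pass the test, with differences from -0.35 for Itgb6 to 1.47 for Aldh1a2.

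**Figure D1:**
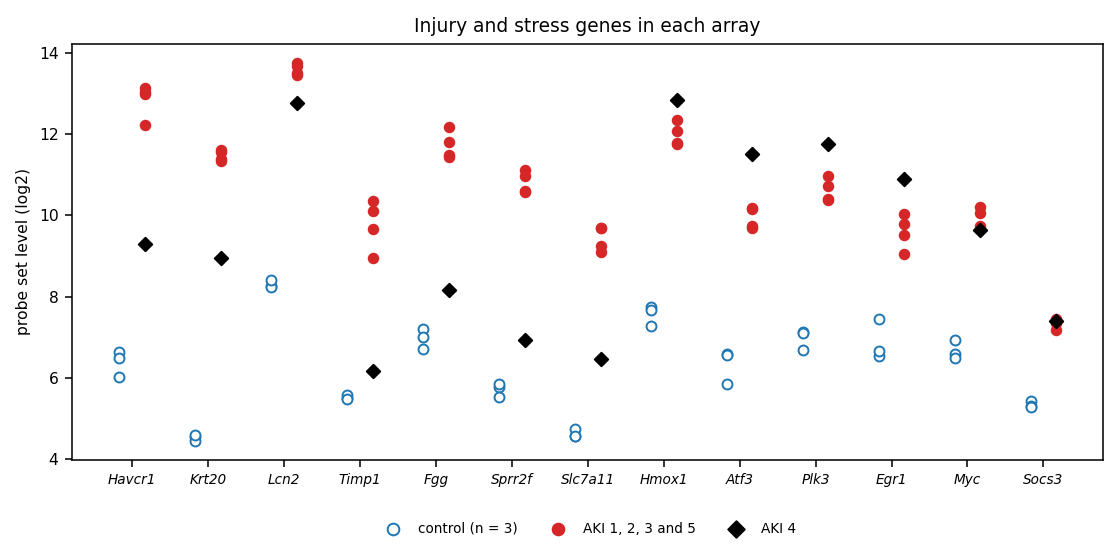
Log2 level of 13 injury and stress genes (x axis) in each of the 3 control arrays (open circles), AKI 1, 2, 3 and 5 (filled circles) and AKI 4 (diamonds). AKI 4 lay well below the other injured arrays for Havcr1 (9.30), Krt20 (8.95), Timp1, Fgg, Sprr2f and Slc7a11, and above them for Hmox1 (12.85), Atf3 (11.52), Plk3 and Egr1.

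Genes of the epithelial cytoskeleton and surface rose as well. Of 13 keratins and cornified envelope genes 9 rose and 0 fell, with a median of 1.08. The small proline-rich proteins, which are cross-linked into the envelope of stressed epithelia, included Sprr2f, at 5.77, 5.54 and 5.86 in controls 1 to 3 and 10.59, 10.60, 11.12, 6.93 and 10.96 in AKI 1 to 5. AKI 4 was nearer to the controls than to the other injured arrays, and the rise was 4.32 ± 0.866 (SE; adjusted p = 0.00183), or 5.09 without it. Sprr2g rose by 3.64, Sprr1a by 1.80 and Krt8, a keratin of simple epithelia, by 1.60. Of 22 genes of actin, tubulin and adhesion 15 rose and 0 fell, median 0.75. Tubb6, a beta-tubulin, rose by 2.97 ± 0.288 (SE; adjusted p = 1.03e-05), and Flnc, an actin cross-linker, by 2.33 ± 0.518 (SE; adjusted p = 0.00351). Flnc read 5.39 in AKI 4, near the controls at 4.93 to 5.12, and 6.93 to 8.70 in the other AKI arrays. Of 15 annexins and S100 proteins 7 rose and 4 fell. Anxa3 and Anxa2, which bind membrane phospholipid in the presence of calcium, rose by 2.35 and 1.56, whereas Anxa6 fell by 0.63 and S100a1 by 0.44. Among 13 claudins and tight junction genes 4 rose and 5 fell. Cldn4 rose by 2.69 ± 0.399 (SE; adjusted p = 0.000216) and Cldn3 by 1.29. Cldn10 fell by 1.88, Cldn8 by 1.26 and Cldn2, which forms the cation and water pore of the proximal tubule, by 0.55.

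Of 26 genes of matrix, matrix proteases and the plasminogen system 15 rose and 3 fell, median 0.62. Lox, which cross-links collagen, rose by 1.97 ± 0.484 (SE; adjusted p = 0.0066), and the protease Adamts1 by 1.90 ± 0.205 (SE; adjusted p = 2.08e-05). Tnc, a matrix glycoprotein of remodelling tissue, rose by 1.56. Tgfb2, a growth factor of the TGF-beta family, fell by 0.69. Among 11 EGF receptor ligands and receptors the changes ran in both directions, 1 up and 3 down. Hbegf, a membrane-bound ligand shed in injury, read 6.87, 6.66 and 7.16 in controls 1 to 3 and 8.53, 8.71, 9.13, 10.51 and 9.15 in AKI 1 to 5. All AKI arrays were above all controls, AKI 4 the highest, and the rise was 2.31 ± 0.334 (SE; adjusted p = 0.000186). Egf, the ligand made by the thick ascending limb and distal tubule, fell by 3.55 ± 0.812 (SE; adjusted p = 0.00426), or by 4.36 without AKI 4. Its levels were 12.29, 11.90 and 11.80 in controls 1 to 3 and 7.53, 7.52, 8.20, 11.72 and 7.28 in AKI 1 to 5. AKI 4 was just under the lowest control, and the other AKI arrays lay far below. The receptors Erbb2 and Erbb4 fell by 0.92 and 0.97.

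Genes induced within the first phase of a cell's response, many of them transcription factors, rose in both lists that were measured. Of 12 AP-1 factors 10 rose and 0 fell, with a median of 1.32. Of 17 EGR, KLF and other immediate early genes 15 rose and 0 fell, with a median of 1.27. Atf3, a stress-induced repressor and activator that dimerises with AP-1 proteins, read 5.85, 6.58 and 6.57 in controls 1 to 3 and 9.74, 9.69, 10.17, 11.52 and 10.18 in AKI 1 to 5. The groups did not overlap, AKI 4 was the highest, and the rise was 3.93 ± 0.426 (SE; adjusted p = 2.27e-05). Fosl1 rose by 3.46 ± 0.288 (SE; adjusted p = 3.49e-06), Maff by 2.58 and Jun by 2.38. Fos itself read 4.64, 4.23 and 4.56 in controls 1 to 3 and 5.01, 7.81, 5.39, 7.01 and 5.71 in AKI 1 to 5. AKI 2 and AKI 4 were far above AKI 1, 3 and 5, and the rise was 1.71 ± 0.474 (SE; adjusted p = 0.0137). Its call was lost without control 2 (rise of 1.59). Egr1, a zinc finger factor downstream of growth factor signalling, read 7.46, 6.55 and 6.67 in controls 1 to 3 and 9.04, 10.04, 9.78, 10.90 and 9.52 in AKI 1 to 5, again with AKI 4 the highest, and rose by 2.96 ± 0.358 (SE; adjusted p = 5.01e-05). Ccn1, Klf6, Csrnp1 and Nr4a1 rose by 2.67, 2.40, 1.96 and 1.92. Among 15 MAP kinase phosphatases and Sprouty proteins, which switch the same signalling off, 11 rose and 1 fell. Dusp5, which acts on ERK in the nucleus, rose by 2.36 ± 0.224 (SE; adjusted p = 9.19e-06), and Dusp9 fell by 0.81.

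Heat shock genes rose in part. Of 18 heat shock proteins and co-chaperones 10 rose and 0 fell, with a median of 0.62. Hspb1, a small heat shock protein, read 8.59, 8.81 and 8.31 in controls 1 to 3 and 11.84, 11.99, 12.00, 10.59 and 12.20 in AKI 1 to 5. All injured arrays were above all controls, AKI 4 the lowest of them, and the rise was 3.15 ± 0.309 (SE; adjusted p = 1.11e-05). Hspa1a, the inducible HSP70, rose by 2.50 ± 0.408 (SE; adjusted p = 0.000429) and its co-chaperone Bag3 by 1.45 ± 0.15 (SE; adjusted p = 1.66e-05). Of 17 endoplasmic reticulum chaperones 4 rose and 0 fell, with a median of 0.17. These were Dnajb9 (1.22), Creld2 (1.15), Hspa5, the reticulum's main HSP70 (1.04), and Xbp1, a transcription factor of the unfolded protein response (0.42). The call of Creld2 was lost without control 1, control 3, VHL-KO 1, AKI 1, AKI 2, AKI 3, AKI 5 or VHL-KO/AKI 2 (rise of 0.91 to 1.21) and that of Xbp1 without control 1 (rise of 0.30).

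The transcription factor ATF4 is translated when the integrated stress response slows protein synthesis, and it drives amino acid uptake and synthesis. Of 22 ATF4 and integrated stress response targets 14 rose and 3 fell, with a median of 1.05. Of 18 cytosolic aminoacyl-tRNA synthetases, which charge tRNAs with amino acids, 10 rose and 0 fell, with a median of 0.40. ATF4 with a C/EBP partner binds the composite C/EBP-ATF response element. Its letters TGATGNAA were searched on both strands in the 250 bases before each annotated start. A gene was counted if any of its starts had a match. The letters were found in 6 of the 20 ATF4-list genes with a window (Chac1, Asns, Slc7a11, Vldlr, Nupr1 and Fgf21). They were also found in 2 of 11 synthetases (Gars and Tars), and in 3.14% of the 15614 tested genes with a window. Among all genes that rose the share was 2.55%, and among those that fell 2.72%. Stretches with the match are shown for members that rose, since the match was found in a larger share of these lists than of all tested genes, and for Atf3, itself an ATF4 target. Each is 5′ to 3′ on the gene's strand, with the matching letters in capitals, either as TGATGNAA or as its reverse complement, from RefSeq windows of build GRCm38.p6.
Asns (chr6:7693210-7693262, minus strand, 23 to 16 bases before the start): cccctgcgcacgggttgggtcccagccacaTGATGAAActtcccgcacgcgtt
Chac1 (chr2:119351019-119351086, plus strand, 193 to 186 bases before the start): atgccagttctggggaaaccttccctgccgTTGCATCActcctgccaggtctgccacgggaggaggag
Slc7a11 (chr3:50443623-50443709, minus strand, 66 to 40 bases before the start): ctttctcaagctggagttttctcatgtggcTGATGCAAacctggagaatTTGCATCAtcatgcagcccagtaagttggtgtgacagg
Atf3 (chr1:191183406-191183473, minus strand, 110 to 103 bases before the start): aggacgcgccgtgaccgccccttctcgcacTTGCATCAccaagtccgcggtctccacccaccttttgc
Tars (chr15:11399659-11399703, minus strand, 15 to 8 bases before the start): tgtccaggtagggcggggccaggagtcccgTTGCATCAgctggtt
Gars (chr6:55037941-55038000, plus strand, 30 to 23 bases before the start): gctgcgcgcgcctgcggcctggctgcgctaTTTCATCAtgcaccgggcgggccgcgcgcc
A match is only a description of the letters.

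Slc7a11, which imports cystine for glutathione synthesis and holds a pair of such matches, read 4.58, 4.75 and 4.56 in controls 1 to 3 and 9.70, 9.11, 9.69, 6.47 and 9.25 in AKI 1 to 5. AKI 4 lay between the controls and the other AKI arrays, and the rise was 4.21 ± 0.653 (SE; adjusted p = 0.000299), or 4.81 without it. Asns, asparagine synthetase, rose by 1.91 ± 0.24 (SE; adjusted p = 6.7e-05), and Chac1, which degrades glutathione, by 2.30 ± 0.282 (SE; adjusted p = 5.57e-05), with AKI 4 the highest at 8.86. Ppp1r15a, which restores translation, rose by 2.33 ± 0.375 (SE; adjusted p = 0.000385). Ddit4, an inhibitor of mTORC1 signalling, rose by 1.96, and Tars and Gars rose by 1.06 and 0.75. The 3 list members that fell were Cth by 0.49, Vldlr by 0.85 and Shmt2 by 0.93. Cth makes cysteine from cystathionine, Vldlr takes up lipoproteins and Shmt2 is a mitochondrial folate enzyme. The call of Cth was lost without control 1, control 2, control 3, AKI 1, AKI 2 or AKI 5 (fall of 0.41 to 0.53).

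Genes of haem breakdown and antioxidant defence rose in part. Hmox1, the enzyme that opens the haem ring, read 7.28, 7.75 and 7.66 in controls 1 to 3 and 11.79, 11.76, 12.34, 12.85 and 12.09 in AKI 1 to 5. All AKI arrays lay far above all controls, AKI 4 the highest, and the rise was 4.61 ± 0.32 (SE; adjusted p = 1.01e-06), a 24.4-fold change. Blvrb, a biliverdin reductase, rose by 2.08 ± 0.414 (SE; adjusted p = 0.00175), and Hp, haptoglobin, which binds free haemoglobin, by 1.73 ± 0.305 (SE; adjusted p = 0.000736). Of 20 haem and iron genes 6 rose and 4 fell. Among the falls were those of Abcb6 (-0.45), the iron exporter Slc40a1 (-0.64) and the ferrireductase Steap3 (-0.93). Of 19 targets of the antioxidant factor NRF2, 9 rose and 1 fell, median 0.42. Srxn1, which reactivates peroxiredoxins, rose by 3.03 ± 0.298 (SE; adjusted p = 1.12e-05), Txnrd1, thioredoxin reductase, by 1.96 and Nqo1, a quinone reductase, by 1.52. Ephx1, an epoxide hydrolase, fell by 1.08. The metal-binding metallothioneins Mt1 and Mt2 rose by 1.40 ± 0.146 (SE; adjusted p = 1.74e-05) and 1.26 ± 0.118 (SE; adjusted p = 8.3e-06). Their 5 AKI arrays were close together, at 12.38 to 12.51 for Mt1 and 13.29 to 13.33 for Mt2. The zinc importer Slc39a14 rose by 1.31 and Slc39a5 fell by 2.00.

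Genes of growth arrest, protein turnover and ribosome assembly also moved. Of 14 p53 targets 11 rose and 0 fell, with a median of 1.01. Cdkn1a, Bax and Trp53, also on this list, were not measured. Plk3, a stress-activated kinase, read 7.12, 6.68 and 7.10 in controls 1 to 3 and 10.40, 10.38, 10.98, 11.76 and 10.73 in AKI 1 to 5. The groups did not overlap, AKI 4 was the highest, and the rise was 3.88 ± 0.361 (SE; adjusted p = 7.99e-06). The antiproliferative gene Btg2 rose by 2.35, Gadd45a, a DNA damage response gene, by 2.07 and the death receptor Tnfrsf10b by 1.66. Of 21 cell death regulators 9 rose and 1 fell. Mlkl, the pore-forming protein of necroptosis, rose by 2.41 ± 0.429 (SE; adjusted p = 0.000804); it read 6.69 in AKI 4 and 8.76 to 9.07 in the other AKI arrays. Acsl4, an acyl-CoA synthetase required for ferroptosis, rose by 1.21, and the anti-apoptotic Bcl2l1 by 0.72, whereas Bcl2 fell by 0.51. Of 31 proteasome subunits 27 rose and 0 fell, with a median of 0.74 and all 31 rising without AKI 4. Psmc6 rose by 1.40 ± 0.231 (SE; adjusted p = 0.000446) and Psma5 by 1.34 ± 0.254 (SE; adjusted p = 0.00125). Of 25 ribosome biogenesis factors 17 rose and 0 fell, median 0.62, led by the nucleolar proteins Gnl3 (1.61), Ddx21 (1.42) and Nop58 (1.40). Of 22 cell cycle genes 6 rose and 4 fell. Pcna, the DNA polymerase clamp, rose by 1.02 ± 0.135 (SE; adjusted p = 9.88e-05) and Top2a by 0.66, whereas Ccnd1, cyclin D1, fell by 0.95, a call lost without control 1 or control 3 (fall of 0.90 to 0.94).

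Inflammatory signalling rose in part. Of 13 genes of the IL-6 family, its receptors and its feedback 8 rose and 1 fell, median 0.71. Socs3, the feedback inhibitor, read 5.42, 5.30 and 5.28 in controls 1 to 3 and 7.18, 7.38, 7.35, 7.40 and 7.44 in AKI 1 to 5; the AKI arrays lay close together, from 7.18 to 7.44, and the rise was 2.01 ± 0.242 (SE; adjusted p = 4.83e-05). Il6 rose by 1.14 ± 0.228 (SE; adjusted p = 0.00184) from levels of 4.22 to 4.40. Clcf1, Osmr and Stat3 rose by 2.01, 1.69 and 1.42. Lifr, the receptor of leukaemia inhibitory factor, fell by 0.42, a call lost without control 1, control 3 or AKI 2 (fall of 0.38 to 0.42). Il6st, Osm, Socs2 and Cish did not pass, at 0.11, 0.07, -0.31 and -0.73. Of 23 cytokines, chemokines and NF-kB feedback genes 9 rose and 0 fell, median 0.33, led by Bcl3 (2.37), Nfkbiz (1.45) and Il1rn (1.31). Acute phase and complement genes, 16 in number, included 6 that rose and 3 that fell. Serpina3n, a secreted protease inhibitor, read 5.64, 6.45 and 5.89 in controls 1 to 3 and 10.71, 11.11, 11.38, 10.92 and 10.46 in AKI 1 to 5. No array of AKI came near a control, and the rise was 4.92 ± 0.423 (SE; adjusted p = 4.07e-06). The fibrinogen chains Fgg, Fgb and Fga rose by 4.04 ± 0.725 (SE; adjusted p = 0.000847), 3.61 ± 0.885 (SE; adjusted p = 0.00654) and 2.52 ± 0.488 (SE; adjusted p = 0.00141). Without AKI 4 the rises of Fgg and Fgb were 4.75 and 4.45. Fgb was at 6.29 in AKI 4, against 5.71 to 6.25 in the controls and 10.00 to 11.15 in the other AKI arrays. Among the 3 that fell were Cfi, which cleaves the complement fragment C3b, by 1.29 and Cfb, of the alternative pathway, by 0.79.

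Markers of white blood cells differed by type. Of 11 neutrophil markers 8 rose and 0 fell, with a median of 0.85. Retnlg read 5.04, 5.00 and 4.94 in controls 1 to 3 and 7.62, 6.62, 7.22, 7.90 and 6.16 in AKI 1 to 5, and the rise was 2.11 ± 0.525 (SE; adjusted p = 0.00714). Cxcr2, the receptor for neutrophil chemokines, rose by 1.83 ± 0.4 (SE; adjusted p = 0.00316), and the calprotectin chains S100a9 and S100a8 by 1.22 and 0.87. Of 14 macrophage markers 3 rose and 1 fell, median -0.14, where 13.2% of all genes tested rose and 14.9% fell. Cd14, the endotoxin co-receptor, rose by 2.52 ± 0.319 (SE; adjusted p = 7.03e-05) and Cd68 by 1.93 ± 0.418 (SE; adjusted p = 0.003), whereas Csf1r, the receptor that macrophages depend on, fell by 1.03 ± 0.152 (SE; adjusted p = 0.000206). All 5 genes that passed among 6 of MHC class II, which presents antigen, fell, with a list median of -1.78. H2-Ab1 read 9.95, 12.08 and 11.13 in controls 1 to 3 and 9.23, 7.97, 9.26, 9.31 and 8.73 in AKI 1 to 5. The controls were spread widely, control 1 the lowest, and the difference was -2.16 ± 0.431 (SE; adjusted p = 0.00179). Of 13 interferon-stimulated genes 0 rose and 2 fell, Gbp3 by 1.83 among them, with a median of -0.64. The mean of this list was 6.87, 8.12 and 7.23 in controls 1 to 3 and 6.46 to 6.97 in AKI. Control 1 thus lay within the AKI range, and control 2 was the highest. Of 12 lymphocyte markers 0 rose and 2 fell, with a median of -0.08. In both lists the share that fell was near the 14.9% of all genes tested.

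Transport genes fell in each tubule segment listed. Of 32 proximal tubule solute carriers and channels 25 fell and 2 rose, with a median of -1.06. Slc5a12, a sodium-lactate cotransporter, read 12.60, 12.30 and 12.45 in controls 1 to 3 and 9.79, 9.47, 10.23, 11.95 and 9.41 in AKI 1 to 5. The groups did not overlap; AKI 4 was close to the controls, and the difference was -2.28 ± 0.462 (SE; adjusted p = 0.00196). Slc13a3, the basolateral dicarboxylate carrier, fell by 2.23 ± 0.423 (SE; adjusted p = 0.00125). Slc7a8, Slc15a2 and the water channel Aqp1 fell by 2.02, 1.98 and 1.93. The rises were those of Slc16a1, a monocarboxylate carrier (1.74), and of the phosphate carrier Slc20a2 (0.60). Slc3a2, Slc6a18, Slc22a12, Slc22a6 and Slc5a8 did not pass, at 0.30, -0.24, -0.38, -0.59 and -0.91. Of 7 endocytic receptors and adaptors, the machinery that takes up filtered protein including myoglobin, 2 fell. These were the receptors Lrp2, megalin, by 1.41 ± 0.165 (SE; adjusted p = 3.96e-05) and Cubn, cubilin, by 1.63 ± 0.257 (SE; adjusted p = 0.000335). Without AKI 4 the number that fell was 4. The other 5, Dab2, Ocrl, Clcn5, Cltrn and Amn, did not pass, at 0.13, 0.00, -0.20, -0.40 and -0.46.

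The thick ascending limb list had the lowest median of the tubule segments. Of its 11 genes 10 fell and 0 rose, with a median of -1.96. Slc12a1, the sodium-potassium-chloride cotransporter blocked by furosemide, read 12.41, 12.01 and 12.14 in controls 1 to 3 and 9.06, 9.09, 9.75, 12.07 and 8.37 in AKI 1 to 5. AKI 4 lay among the controls, the other AKI arrays lay far below, and the difference was -2.52 ± 0.637 (SE; adjusted p = 0.00782), and without AKI 4 it fell by 3.12. Bsnd, the chloride channel subunit barttin, read 9.64, 9.72 and 9.48 in controls 1 to 3 and 7.20, 6.87, 6.55, 7.14 and 6.65 in AKI 1 to 5. Here AKI 4 was within the range of the other AKI arrays, and the difference was -2.73 ± 0.299 (SE; adjusted p = 2.36e-05). Kcnj1, the potassium channel ROMK, and Casr, the calcium-sensing receptor, fell by 2.17 and 2.19. In AKI 4 Kcnj1 was at 9.26, again among the injured arrays at 8.59 to 9.43.

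Of 14 distal convoluted and connecting tubule genes 11 fell and 0 rose, median -0.98. Pvalb, the calcium-binding protein parvalbumin, fell by 2.81 ± 0.54 (SE; adjusted p = 0.00137), the sodium-calcium exchanger Slc8a1 by 2.40 ± 0.391 (SE; adjusted p = 0.000422) and Klhl3, which targets WNK kinases for degradation, by 1.63 ± 0.128 (SE; adjusted p = 2.18e-06). Calb1, calbindin-D28k, and Kl, the FGF23 co-receptor Klotho, fell by 1.73 and 1.83. Of 12 principal cell genes of the collecting duct 7 fell and 0 rose, median -0.83. Hsd11b2, which inactivates glucocorticoid, fell by 1.51, the sodium channel subunit Scnn1g by 1.29, the aldosterone receptor Nr3c2 by 1.29 and the vasopressin receptor Avpr2 by 1.20. Of 15 intercalated cell genes, which secrete acid or base, 13 fell and 0 rose, median -1.37. Slc4a1, the anion exchanger, read 8.50, 8.41 and 8.39 in controls 1 to 3 and 5.98, 5.66, 5.70, 6.74 and 5.82 in AKI 1 to 5. No injured array reached the controls, and the difference was -2.45 ± 0.272 (SE; adjusted p = 2.58e-05). Rhcg, an ammonia channel, fell by 2.43 and the proton pump subunit Atp6v1b1 by 1.89.

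**Figure D2:**
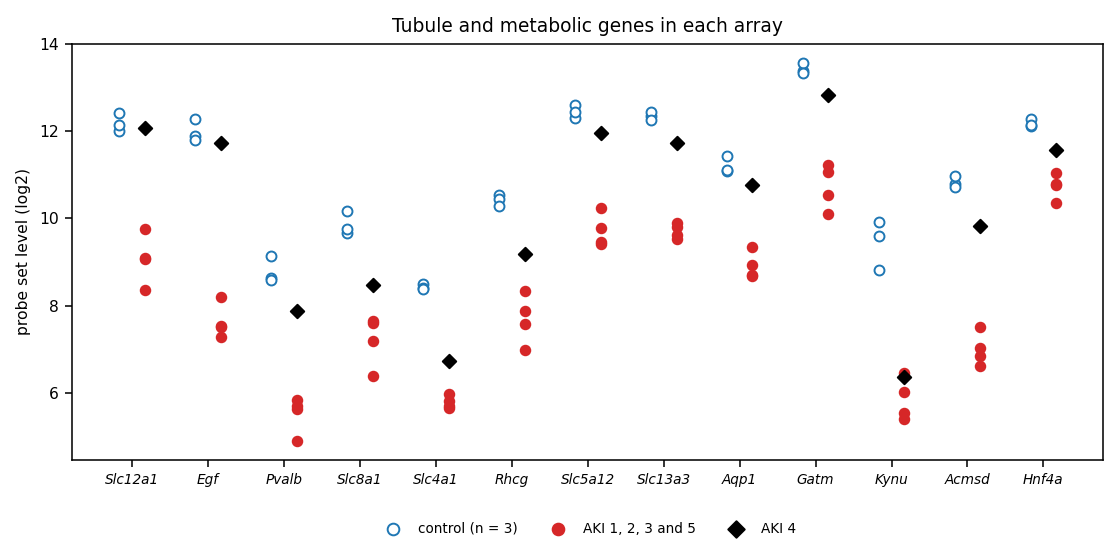
Log2 level of 13 transport, metabolic and transcription factor genes (x axis) in the control arrays (open circles, n = 3), AKI 1, 2, 3 and 5 (filled circles) and AKI 4 (diamonds). AKI 4 was at or near the controls for Slc12a1 (12.07) and Egf (11.72), and among the other injured arrays for Kynu (6.36).

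Transcription factors that keep nephron cells differentiated fell with these genes. Of 22 nephron identity factors and co-activators 17 fell and 1 rose, with a median of -0.74. Hnf4a, the master regulator of proximal tubule genes, read 12.13, 12.27 and 12.15 in controls 1 to 3 and 10.80, 11.05, 10.77, 11.57 and 10.35 in AKI 1 to 5. The groups did not overlap and the difference was -1.28 ± 0.199 (SE; adjusted p = 0.000309). Ppargc1a, the co-activator of mitochondrial biogenesis, fell by 1.33 ± 0.214 (SE; adjusted p = 0.000385). Esrrb, Esrrg, Tfap2b and Ppara fell by 1.54, 1.22, 1.05 and 0.93. Pax8, a nephron lineage factor whose promoter drives the transgene of this line, was the 1 that rose, by 0.67 ± 0.0991 (SE; adjusted p = 0.000216), with every AKI array (11.15 to 11.57) above every control (10.60 to 10.68).

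Metabolic genes fell to different extents. Of 27 respiratory chain and ATP synthase subunits 24 fell and 0 rose, with a median of -0.56 and falls of at most 0.82, that of Ndufs8. Of 23 citric acid cycle genes 14 fell and 0 rose, median -0.38, with Idh2 falling by 1.33 ± 0.251 (SE; adjusted p = 0.00123). Of 7 gluconeogenesis genes 6 fell, median -1.04. G6pc, glucose-6-phosphatase, read 12.81, 12.66 and 12.77 in controls 1 to 3 and 9.86, 10.17, 11.10, 12.63 and 9.52 in AKI 1 to 5. AKI 4 was nearly at the controls, and the difference was -2.09 ± 0.513 (SE; adjusted p = 0.00658). Pck1, the gluconeogenic carboxykinase, fell by 1.04. Of 22 genes of fatty acid oxidation 7 fell and 2 rose, median -0.31. Acaa2 fell by 1.06 and Acadm by 0.68, whereas Acot2, a mitochondrial thioesterase, rose by 1.22 ± 0.193 (SE; adjusted p = 0.000332). Of 19 glycolysis genes 3 rose and 6 fell, median -0.11. Pdk4, the kinase that shuts off pyruvate dehydrogenase, read 8.76, 8.29 and 8.46 in controls 1 to 3 and 11.19, 11.88, 12.37, 12.67 and 11.23 in AKI 1 to 5 and rose by 3.37 ± 0.773 (SE; adjusted p = 0.00432); the muscle phosphofructokinase Pfkm fell by 1.52 and hexokinase Hk2 rose by 0.53.

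Enzymes of amino acid handling fell. Of 22 amino acid, creatine and one-carbon enzymes 17 fell and 1 rose, with a median of -1.16. Hao2, a peroxisomal hydroxyacid oxidase, read 11.86, 11.95 and 11.44 in controls 1 to 3 and 6.92, 6.80, 8.27, 10.31 and 7.58 in AKI 1 to 5, and fell by 3.77 ± 0.616 (SE; adjusted p = 0.000432). Hpd, of tyrosine breakdown, fell by 3.42 ± 0.468 (SE; adjusted p = 0.000121), and Gatm, which makes the precursor of creatine, by 2.28 ± 0.454 (SE; adjusted p = 0.00177). Arg2, mitochondrial arginase, was the 1 that rose, by 1.78 ± 0.411 (SE; adjusted p = 0.00449). Of 14 genes leading from tryptophan to NAD 10 fell and 1 rose, median -0.96. Kynu, kynureninase, read 9.91, 9.59 and 8.82 in controls 1 to 3 and 5.54, 6.45, 6.01, 6.36 and 5.39 in AKI 1 to 5. AKI 4 was among the other injured arrays, and the difference was -3.49 ± 0.399 (SE; adjusted p = 3.35e-05), or -2.87 against control 3 alone. Acmsd, which diverts the pathway away from NAD, read 9.83 in AKI 4, 6.61 to 7.51 in the other AKI arrays and 10.72 to 10.97 in the controls, and fell by 3.25 ± 0.652 (SE; adjusted p = 0.00181). Kmo, Afmid and Haao fell by 1.99, 1.97 and 1.63. Nnmt, which methylates nicotinamide, rose by 0.49.

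Genes of lipid storage and uptake moved in both directions. Of 16 genes of lipid droplets and lipoprotein uptake 6 rose and 3 fell, with a median of 0.05; without AKI 4 6 rose and 7 fell. Plin2, the droplet coat protein, read 9.38, 9.58 and 9.53 in controls 1 to 3 and 12.46, 12.72, 12.52, 11.14 and 12.53 in AKI 1 to 5, with all injured arrays above the controls, and rose by 2.78 ± 0.421 (SE; adjusted p = 0.000261). Angptl4, an inhibitor of lipoprotein lipase, rose by 2.12 ± 0.495 (SE; adjusted p = 0.00482). Cd36, a fatty acid transporter, was called higher by 1.74, but control 3 read 11.42 against 8.89 and 9.26 in the other controls, and against control 3 alone the difference was 0.18; without control 3 it was 2.53. Of 13 cholesterol synthesis genes 6 fell and 0 rose, median -0.38, with Cyp51 falling by 1.90 ± 0.285 (SE; adjusted p = 0.000238) and Stard4 by 1.35. Of 6 adipose markers 5 rose, median 1.64, or 2.05 against control 3 alone. Cidec, a droplet fusion protein, rose by 3.09 ± 0.422 (SE; adjusted p = 0.000119) and Adipoq, adiponectin, by 1.70 ± 0.461 (SE; adjusted p = 0.0118), with AKI 4 the highest at 9.07; the call of Adipoq was lost without control 3 (rise of 1.46). Of 16 peroxisome genes 4 fell, Pxmp2 by 1.59 and Scp2 by 1.06 among them. The part of fat around the kidney in these values was not tested.

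Genes of the circadian clock moved in both directions. Of 15 measured 4 rose and 6 fell, and AKI 4 was on average 1.27 above the other AKI arrays, the largest such gap of the 63 lists. Dbp, an output gene of the clock, read 10.25, 9.91 and 10.18 in controls 1 to 3 and 8.12, 8.38, 6.88, 9.06 and 7.13 in AKI 1 to 5 and fell by 2.20 ± 0.418 (SE; adjusted p = 0.00127). Hlf and Tef, of the same family, fell by 2.02 and 1.39, with AKI 4 near the controls. Arntl, the clock's core activator, rose by 1.30 ± 0.234 (SE; adjusted p = 0.000847). Nfil3, a repressor that opposes Dbp, read 6.04, 6.06 and 6.12 in controls 1 to 3 and 7.53, 7.50, 8.17, 9.83 and 7.88 in AKI 1 to 5 and rose by 2.11 ± 0.397 (SE; adjusted p = 0.00117), AKI 4 the highest. The hour at which each animal was killed is not in the labels used here, and its part in these values was not tested. Of 8 glucocorticoid-responsive genes 3 rose and 1 fell: Lcn2, Zbtb16 (2.03) and Fkbp5 (1.88) rose and the receptor Nr3c1 fell by 0.31.

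Of 18 HIF target and pathway genes, the programme that Vhl loss releases, 4 rose and 3 fell, with a median of -0.03 and without AKI 4 6 falling. The counts of 4 and 3 were not far from the 13.2% of all genes tested that rose and the 14.9% that fell. Adm, adrenomedullin, read 6.73, 6.25 and 6.30 in controls 1 to 3 and 7.76, 7.65, 8.11, 8.54 and 8.23 in AKI 1 to 5. All injured arrays were above the controls, and the rise was 1.63 ± 0.209 (SE; adjusted p = 7.38e-05). The glucose transporter Slc2a1 rose by 0.84 and Hif1a itself by 0.54. Pdk1, which slows pyruvate entry into mitochondria, fell by 1.07 and Epas1, which encodes HIF-2 alpha, by 0.43. The call of Epas1 was lost without control 1, AKI 1 or AKI 5 (fall of 0.34 to 0.40). Of 8 genes of osmotic response and urea transport 2 rose and 3 fell. The amino acid carrier Slc38a2 rose by 1.52 ± 0.16 (SE; adjusted p = 1.77e-05), whereas the urea channel Slc14a1 fell by 0.74. Of 9 genes of vitamin D and phosphate hormones 3 fell and 0 rose, namely Kl, the parathyroid hormone receptor Pth1r (-1.17) and Vdr (-0.96).

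Among markers of other cells that a halved kidney can hold, 1 of 15 endothelial markers rose and 5 fell, median -0.03. Ehd3, of the glomerular endothelium, fell by 1.10 ± 0.186 (SE; adjusted p = 0.000554) and Kdr, a VEGF receptor, by 0.82, whereas Flt1 rose by 0.60. Of 6 podocyte markers 1 rose and 3 fell; Ptpro and Clic5 fell by 1.21 and 1.21. Of 13 fibroblast and smooth muscle markers 4 rose, 2 fell and 7 did not pass, with a median of 0.16. Over all genes tested 13.2% rose and 14.9% fell. Tagln, a contractile protein, rose by 1.25 ± 0.212 (SE; adjusted p = 0.000566) and was the only marker of this list that rose by at least 2-fold. Of 12 skeletal muscle markers 1 rose, Acta1 by 0.55, and 1 fell, Pygm by 0.73. The others, Myh4, Tnni2, Atp2a1, Tnnt3, Mylpf, Ckm, Myh2, Myh1, Mb and Ttn, did not pass, with differences between -0.10 for Ttn and 0.14 for Myh4. Mb, the gene of myoglobin, read 5.22 to 5.31 in the controls and 5.22 to 5.32 in AKI. None of 7 adrenal markers passed, and 1 of 3 erythroid markers fell.

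**Figure D3:**
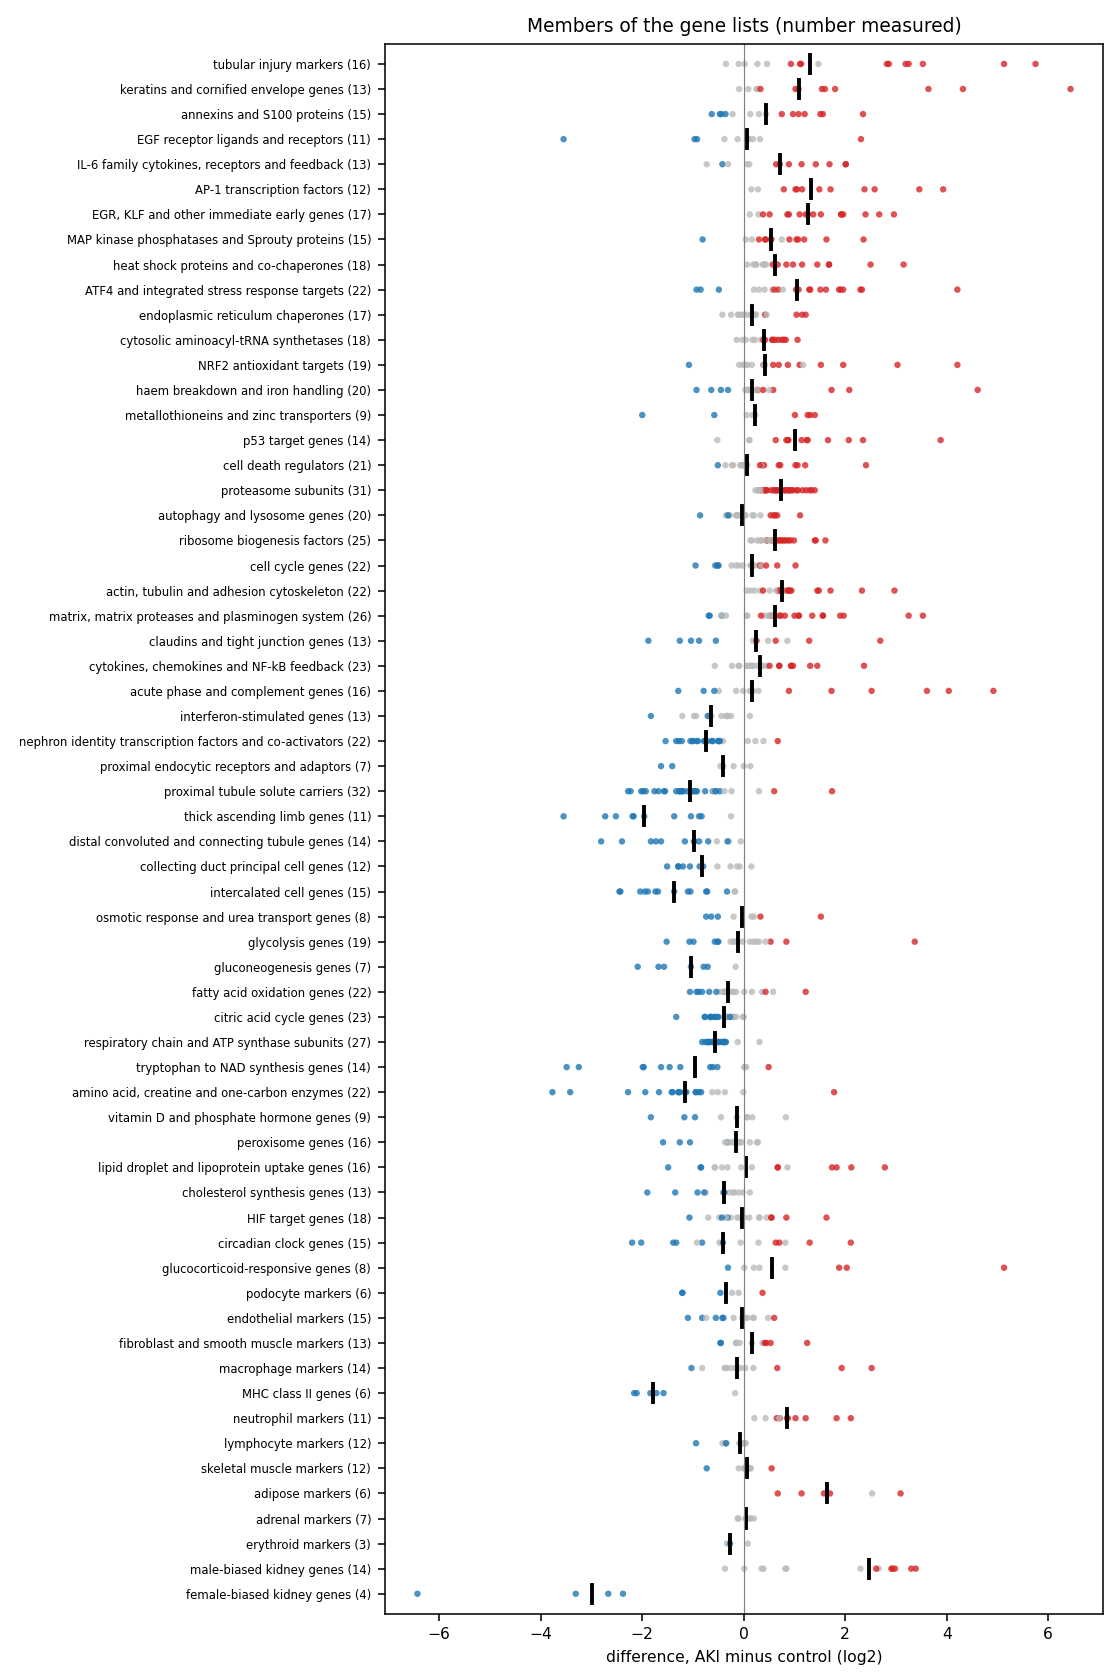
Difference between AKI and control (x axis, log2) of each measured member of 62 gene lists (rows, number measured in brackets). Red points are genes that rose, blue points genes that fell, grey points genes that did not pass, and the black bar is the median of the list, from -2.99 to 2.46.

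The largest falls lay partly outside these lists. Igf2, a growth factor, read 10.06, 9.86 and 8.82 in controls 1 to 3 and 5.41, 5.22, 5.21, 5.71 and 5.25 in AKI 1 to 5. AKI was far below control in every array, with a fall of 4.22 ± 0.233 (SE; adjusted p = 1.05e-07), or 3.46 against control 3 alone. Serpina6, the plasma carrier of glucocorticoids, fell by 5.21 ± 0.444 (SE; adjusted p = 3.83e-06), with controls spread from 8.92 to 11.57; the fall was 5.83 without control 1 and 4.50 without control 2. Akr1c18, which inactivates progesterone, fell by 4.42, Hdc, which makes histamine, fell by 3.63, Rdh16f2, of the retinol dehydrogenases, by 3.55 and Dio1, which activates thyroid hormone, by 3.04. Sfrp1, a secreted inhibitor of Wnt signalling, fell by 2.86. Among the largest rises outside the lists were Lrg1, a secreted glycoprotein (3.76), Gprc5a, an orphan receptor (3.58), and Akr1b8, of the aldo-keto reductases (3.37). Control 3 was the lowest control in 15 of the 20 largest falls, or 75%, compared with 36.6% of all genes that fell and 29% of all genes tested. Against control 3 alone, a comparison with the same AKI arrays in which agreement in direction is largely built in, all 20 stayed lower, by -5.99 to -2.42. All 20 largest rises stayed higher, by 1.56 to 6.38. The smallest of these was that of Timd2, which belongs to the male-biased list and read 8.84 in control 3 against 6.27 and 5.94 in the other controls; without control 3 its rise was 4.30.

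Genes known to differ between male and female mouse kidneys moved with the sex-linked signal. Of 14 male-biased genes 6 rose and 0 fell, with a median of 2.46. Against control 3 alone the median was -0.41 and none was called; the cytochrome Cyp4a12a was at 7.50, 8.43 and 12.44 in the controls and 12.16 to 12.89 in AKI. All 4 female-biased genes measured fell, with a median of -2.99, and -2.44 against control 3 alone. Slc7a12, an amino acid transporter and the gene with the largest fall, read 12.38 in control 3 and up to 13.09 in the other controls, and 5.65, 6.22, 6.15, 8.34 and 5.60 in AKI 1 to 5, and fell by 6.43 ± 0.541 (SE; adjusted p = 3.59e-06). Abcc3, an organic anion exporter, read 9.86, 9.97 and 8.79 in the controls and 5.77 to 6.49 in AKI, a difference of -3.31, or -2.56 against control 3 alone. Of the Y chromosome genes, Kdm5d differed by 0.95, Eif2s3y by 3.00 and Uty by 3.06, and against control 3 alone by 0.26, 1.19 and 0.65. Over the other 60 lists, and with the same AKI arrays as before, the median moved by at most 0.41 against control 3 alone. It changed sign in 3 lists, all with medians of at most 0.05. Fewer members were called there, where the SE was larger. Falls numbered 5 in place of 25 among proximal tubule carriers, 0 in place of 24 in the respiratory chain and 0 in place of 6 in gluconeogenesis, while rises of proteasome subunits numbered 5 in place of 27. The medians of these 4 lists against control 3 alone were -1.17, -0.48, -0.86 and 0.63.

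AKI 4 lay nearer to the controls than the other injured arrays for some lists and further from them for others. It was the AKI array nearest to the controls in 2948 of the 5600 called genes, or 52.6%, compared with 8.07% to 17.6% for each of the other 4. Among genes that fell it was the highest AKI array in 56.3%, and among those that rose it was the lowest in 48.5% and the highest in 18.1%. Over all genes tested it was the highest AKI array in 29.6% and the lowest in 29.3%. Averaged over a list, AKI 4 was below the other AKI arrays by 1.02 for tubular injury markers, 0.75 for the cytoskeleton and 0.69 for keratins. It was above them by 0.71 for AP-1 factors, 0.69 for neutrophil markers and 0.39 for p53 targets. In lists that fell in AKI it was above them by 1.10 for the thick ascending limb, 0.97 for proximal tubule carriers and 1.15 for gluconeogenesis. The mean of the nephron identity factors was an exception, with AKI 4 only 0.03 above the others. The mean of ATF4 targets (0.16) differed little as well. Members of both lists differed in opposite directions. AKI 4 minus the mean of the other AKI arrays was -2.97 for Slc7a11 and 1.67 for Ddit4. It was the highest AKI array for Hnf4a and the lowest for Tfap2b. These gaps are descriptions of 1 array, with no test.

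**Figure D4:**
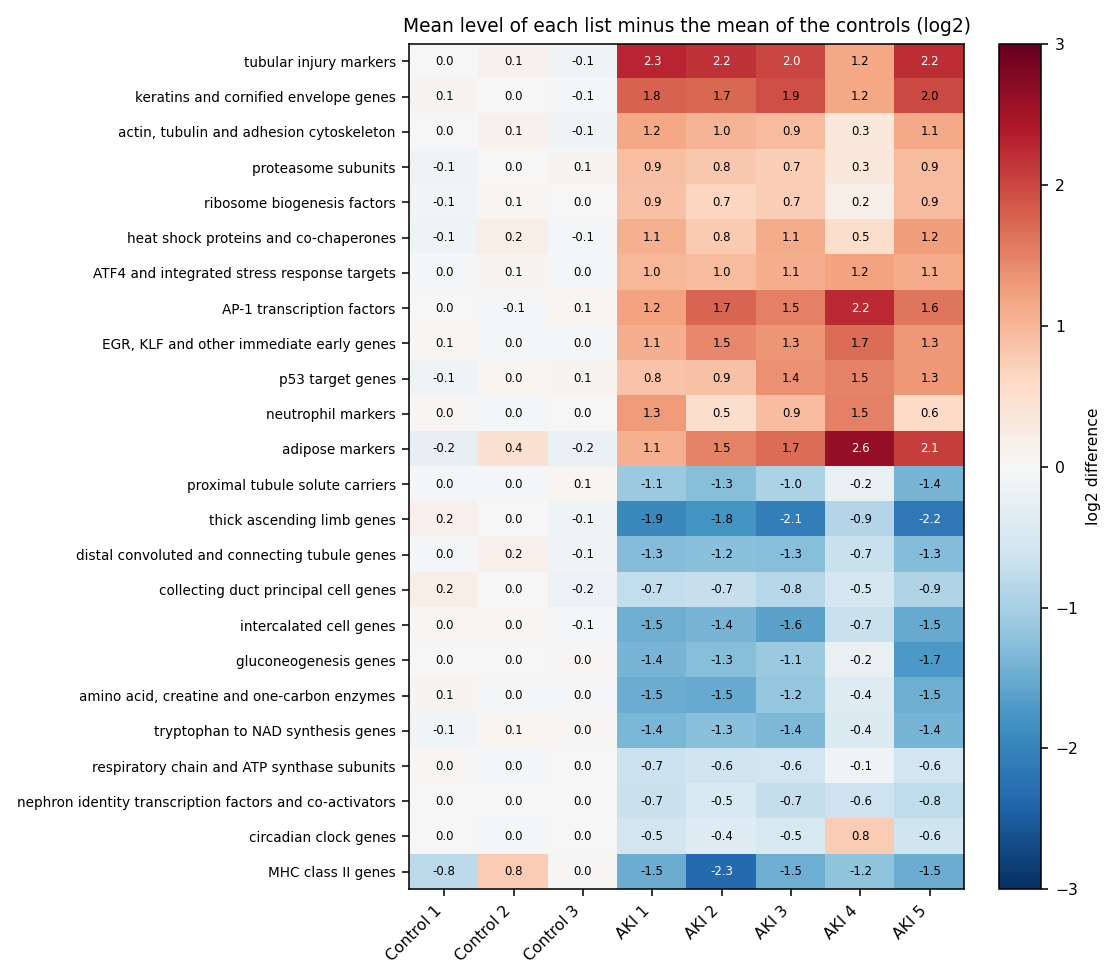
Mean log2 level of 24 gene lists (rows) in each control and AKI array (columns), minus the mean of the 3 controls; red is higher and blue lower. AKI 4 was highest for AP-1 factors and clock genes, and nearer to 0 than the other AKI arrays for injury markers, proximal tubule carriers and gluconeogenesis.

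The same injury in kidneys with deleted Vhl was compared between 5 VHL-KO/AKI arrays and 3 VHL-KO arrays. This comparison shares no array with the one above but also has a sex-linked contrast. Xist read 11.32 to 11.47 in VHL-KO and 4.30 to 4.49 in VHL-KO/AKI. The Y-linked mean was 4.81 to 4.88 and 7.77 to 8.23, so there too the sex-linked signal cannot be told apart from injury. No VHL-KO array carried the Y-linked signal of control 3 (7.43), so the 2 comparisons, and the difference between them, were not balanced for it. The male-biased list had a median of 3.55 with deleted Vhl and 2.46 with intact Vhl. With deleted Vhl 929 genes rose, 4.66% of those tested, and 1776 fell, 8.91%, together 13.6%. Of the 5600 genes called with intact Vhl 2000 were called there too, which is 35.7% of the former and 73.9% of the 2705 called with deleted Vhl. The directions were the same for 1994 of these 2000. Over all 5600 genes 5240, or 93.6%, had the same direction, and for 4599 the change was larger with intact Vhl, the comparison by which these genes were chosen. The differences in that comparison were 5.99 for Havcr1, 4.24 for Lcn2, 5.60 for Krt20 and -4.22 for Igf2. List medians of the kidneys with intact and with deleted Vhl were 1.30 and 1.10 for injury markers, 0.74 and 0.71 for the proteasome, -1.96 and -1.03 for the thick ascending limb, and 1.27 and 0.32 for immediate early genes.

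The difference between the 2 injury responses was itself called for 2 genes, 0.01% of those tested, while 2387 had an unadjusted p under 0.05. Hmox1 read 7.28, 7.75 and 7.66 in the controls, 11.79, 11.76, 12.34, 12.85 and 12.09 in AKI, 9.68, 9.39 and 9.93 in VHL-KO and 10.43, 10.83, 10.45, 11.20 and 12.01 in VHL-KO/AKI. Its change was 4.61 with intact and 1.32 with deleted Vhl, a difference of 3.29 ± 0.453 (SE; adjusted p = 0.0466). VHL-KO arrays were already above the controls, and the highest VHL-KO/AKI array, at 12.01, overlapped the AKI arrays. Myc read 6.94, 6.59 and 6.49 in the controls, 9.73, 10.20, 9.66, 9.65 and 10.07 in AKI, 8.36, 7.66 and 8.73 in VHL-KO and 9.32, 9.37, 9.21, 9.48 and 9.72 in VHL-KO/AKI. Its change was 3.19 with intact and 1.17 with deleted Vhl, a difference of 2.02 ± 0.289 (SE; adjusted p = 0.0466). For this gene the VHL-KO arrays were again above the controls, and VHL-KO/AKI overlapped AKI slightly, at 9.72 against a lowest AKI level of 9.65. Both calls were lost in most settings. The difference was called in 12 of 27 alternative settings for Hmox1 and in 10 of 27 for Myc, and its adjusted p ran from 0.00166 to 0.183 for Hmox1 and from 0.00173 to 0.183 for Myc. Without AKI 4 the difference was called for 620 genes, 327 with the higher value in intact Vhl and 293 with the lower. Without VHL-KO/AKI 5 it was called for 206 genes.

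**Figure D5:**
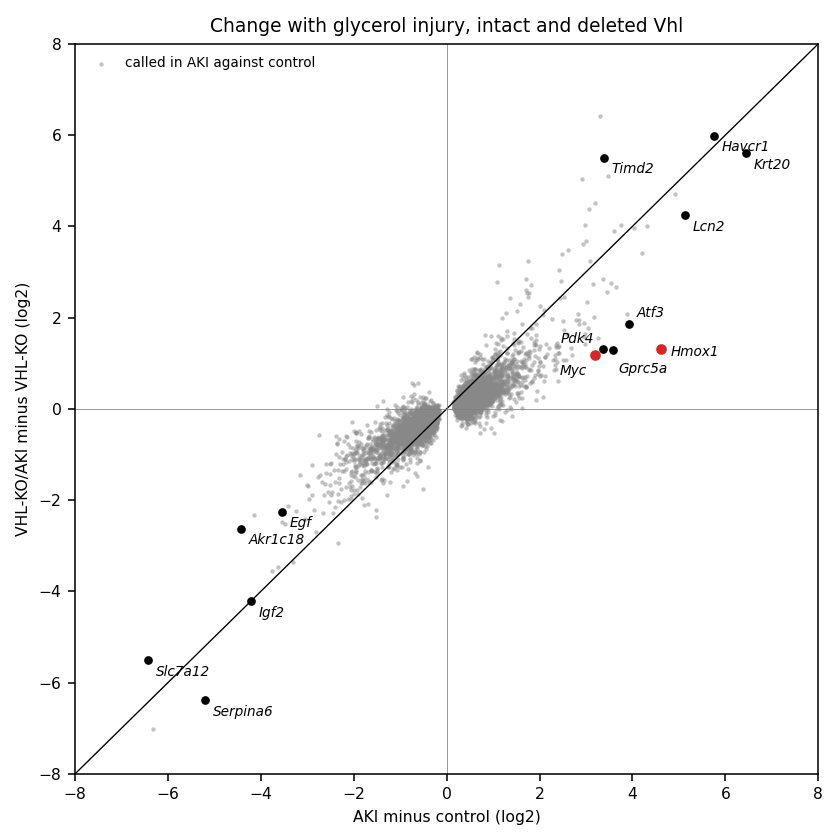
Change with glycerol injury in kidneys with deleted Vhl (y axis, VHL-KO/AKI minus VHL-KO, log2) against the change with intact Vhl (x axis, AKI minus control, log2) for the 5600 genes called with intact Vhl; the diagonal marks equal change. Hmox1 and Myc (red) are the 2 genes whose difference between the axes was called, and 5240 genes have the same sign on both axes.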

How the data were processed

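The authors deposited 1 log2 value per probe set and array, made with Partek 6.4 and RMA per the submitters' processing notes; the array is a whole-transcript mouse gene array, and the values were used as deposited. RMA background-corrects and quantile-scales arrays together, so absolute amounts are not measured, and changes of dim or saturated probes are compressed. Of 35556 probe sets, 21789 carried 1 gene symbol in the platform annotation, 1621 several and 12146 none; only the first kind was used, which gave 19938 genes, 999 of them with several probe sets. Levels of different probe sets were not compared. Precision is limited by the number of arrays.

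A limma 3.58.1 (R 4.3.3) model with 1 mean for each of the 4 groups was fitted to all 16 arrays (12 residual and 2.83 prior degrees of freedom). Contrasts were AKI minus control, VHL-KO/AKI minus VHL-KO, and their difference, with calls made where the p adjusted by Benjamini-Hochberg was under 0.05. The fit was checked on simulated data. These were independent normal values without an outlying array or a sex-linked contrast, so the check does not bear on either. Of 1036 members of 63 gene lists 958 were measured. Members, lists and parts of the design were chosen with earlier results of these data known. The genes named come from several sets, and not every member of a set is named. The first set is the 20 largest rises and 20 largest falls among called genes whose groups do not overlap. It leaves out predicted, numbered and sex-chromosome names. The next are up to 5 called genes of a list in each direction and the called genes with the largest and smallest spread among AKI arrays. Genes with a called difference between responses, Vhl and sex-chromosome genes were added. So were members of a list given in full and markers that did not pass. Counts over the 220 named genes cover only called genes of these sets that the text names. Some of the 20 largest falls are therefore not among the 220. Promoter windows are from RefSeq (GRCm38.p6). Replicate numbers were not taken as pairs: deviations of same-numbered control and AKI arrays correlated at -0.067, 0.067 and -0.041. Alternatives covered scaling, filters, variance models, sex-linked signal and single arrays.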

Additional observations from a re-analysis of the deposited data

Results flagged for a closer look

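A single array stood apart from the other 4 of its group (a gap to its nearest neighbour that is large for the group's range, by Dixon's 95% limit) in 41 of the 220 genes named. Chance flags about 1 in 20 groups of normally distributed values; over all 19938 genes the share was 9.95%, and 1330 of those 1984 flags fell on AKI 4. Among injury, stress and defence genes AKI 4 read 8.95 for Krt20, 9.30 for Havcr1, 6.93 for Sprr2f, 6.47 for Slc7a11, 8.17 for Fgg, 6.29 for Fgb, 6.30 for Fga, 7.64 for Akr1b8, 10.59 for Hspb1, 10.86 for Srxn1, 9.49 for Nqo1, 6.69 for Mlkl, 8.03 for Psma5, 6.93 for Tnc, 11.14 for Plin2 and 5.50 for Acta1, below the other injured arrays in each. It read 11.52 for Atf3, 9.45 for Csrnp1, 8.28 for Nfkbiz, 5.76 for Hk2, 9.83 for Nfil3 and 9.38 for Olfr1442, above them in each.

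Among genes that fell, AKI 4 was above the other injured arrays at 8.34 for Slc7a12, 7.38 for Akr1c18, 11.72 for Egf, 9.83 for Acmsd, 7.96 for Dio1, 9.94 for Sfrp1, 10.13 for Shmt2, 8.26 for Slc39a5, 11.73 for Slc13a3, 11.26 for Kl, 11.46 for Calb1, 10.47 for Idh2, 10.53 for Kmo, 9.35 for Afmid, 7.62 for Stard4 and 9.76 for Hlf. It was below them at 7.12 for Tfap2b. AKI 1 stood apart for Ptpro, at 5.92, and for Cidec, at 8.12. The change with injury differed between intact and deleted Vhl by 3.29 for Hmox1 and 2.02 for Myc, by a test of the difference in limma (adjusted p = 0.0466 for each). It was called in 12 of 27 alternative settings for Hmox1 and in 10 of 27 for Myc.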

How the results depend on the processing

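Of the 220 genes named, 208 kept direction and call under all alternatives other than the sex-linked covariate and the removal of controls 1 and 2. No named gene lost its call under another scaling, all probe sets or other variance models, nor did any of the 215 that the filter on dim genes kept, and 9 of 220 did when only the compared groups were fitted. With single arrays left out, rises numbered 1745 to 3422 and falls 2304 to 3389; VHL-KO/AKI against VHL-KO gave 1683 to 3910 calls, and the difference between responses 0 to 620. With a replicate block the counts were 2002 rises, 2530 falls, 1923 in VHL-KO/AKI and 1 difference, and 4 named genes lost their calls. Array weights gave 4328 calls in VHL-KO/AKI and 885 differences. Differences numbered 0 with all probe sets, 1 after quantile scaling and 20 with controls 1 and 2 left out; the cause was not tested. With those controls left out 521 genes rose and 771 fell, 106 named genes lost their calls, and Cyp4a12a reversed to -0.002; fewer samples and a larger SE come with this setting.

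With the sex-linked covariate 0 genes rose, 0 fell, 0 were called in VHL-KO/AKI and 0 differed (limma), with 712 at an unadjusted p under 0.05 for AKI against control. It reversed 20 named genes: Timd2 (-3.98), Cd36 (-3.39), Cyp4a12a (-7.32), Uty (-5.26), Eif2s3y (-4.17), Kdm5d (-1.73), Acta1 (-0.05), Dio1 (0.28), Pjvk (0.47), Gm9973 (0.98), Anxa6 (0.53), S100a1 (0.04), Steap3 (0.06), Tgfb2 (0.50), Cfi (0.23), Slc14a1 (0.05), Pdk1 (0.01), Pck1 (0.42), Scp2 (0.12) and Epas1 (0.18). The covariate nearly coincides with injury, so it leaves little to estimate the change from.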

Other observations

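The called genes whose levels varied most among the AKI arrays were Fgb (SD 1.92), Egf (1.86), Sprr2f and Sectm1b (1.75 each), Olfr1442 and Timp1 (1.69 each). Sectm1b, a secreted protein gene of the immune system, read 9.82, 10.42 and 10.38 in controls 1 to 3 and 6.38, 5.78, 8.07, 10.20 and 6.85 in AKI 1 to 5, so AKI 4 alone lay among the controls. Olfr1442, annotated as an olfactory receptor, read 4.51 to 4.60 in the controls, 5.10 to 6.13 in AKI 1, 2, 3 and 5, and 9.38 in AKI 4. Its rise of 1.88 was 1.15 without AKI 4, and its call was lost in 12 of the 16 fits that left out 1 array, with a replicate block and with only the compared groups.

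Among called genes that changed at least 4-fold, those that varied least among the AKI arrays were Pjvk (SD 0.05), Socs3 (0.10), Gm9973 (0.12), Uty (0.16), Cd14 (0.19) and Angptl4 (0.20). Pjvk, the gene of pejvakin, read 6.33, 6.97 and 5.54 in the controls and 4.17 to 4.29 in AKI; against control 3 alone its difference was -1.32 in place of -2.07. Gm9973 read 7.45, 7.22 and 5.80 in the controls and 4.36 to 4.63 in AKI, and its difference against control 3 alone was -1.31 in place of -2.34.

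An AP-1 site (TGANTCA on both strands) was searched in the 250 bases before each start. It lay there in 45 of 381 genes that rose by at least 2-fold, or 11.8%. The share was 8.05% of all genes that rose, 4.85% of all that fell and 7.12% of all tested genes with a window. The antioxidant (18.9% against 12.5%) and cAMP (4.99% against 2.33%) response elements also had higher shares in the 381 genes than in all tested genes. For the other elements searched the share was near that of all tested genes. It was 3.67% (14 genes) against 3.14% for the C/EBP-ATF response element. It was 1.84% (7 genes) against 1.45% for the serum response element and 0.525% (2 genes) against 0.442% for the triple heat shock element. These shares are descriptions of sequence, with no test.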
